A study of Mus musculus with 3 samples.

Results

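The cells described here were thymocytes that carried mRNA of the cytotoxic protease granzyme B (Gzmb) together with mRNA of natural killer (NK) receptors and of the T cell receptor (TCR) α constant region (Trac), with little Ccl5, a chemokine of effector lymphocytes. They were chosen by their unique molecular identifier (UMI) counts. A base gate took cells with at least 1 Trac UMI, at least 2 UMIs over the NK receptor genes Klrk1, Klrd1 and Klrb1c, at most 2 UMIs over the interferon-response genes Ifit1, Ifit3 and Isg15, and at most 2 Ccl5 UMIs. The base-gate cells with at least 1 Gzmb UMI are called Gzmb+ Ccl5-low cells, and the base-gate cells with no Gzmb UMI are called Gzmb-zero cells. The second run held 827 Gzmb+ Ccl5-low cells and the third run 387, so 1214 of the 16363 cells that passed the limits in these runs were members. In the first run the base gate held 3 of 5516 cells, none of them with a Gzmb UMI, and that run was not used further.

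The series comprised 3 droplet single-cell RNA-seq libraries (10x) of C57BL/6 mouse thymocytes, with no genetic change or treatment. Each was made from 4 pooled thymi of mice labelled as 6 weeks old, after depletion of CD4+ and CD8+ cells and a sort that, by the study's methods, gated out cells that stained for TCRβ, NK1.1, CD4 or CD8 or for the B cell and myeloid markers B220, CD11b and CD11c. The first library held all double negative (DN) and γδ thymocytes, and the second held DN1 and DN2 cells that were also TCRγδ negative. The third mixed separately sorted DN1 plus DN2, DN3 and TCRγδ+ cells after the sort, so a member of the third run may have come from any of these sorts. The deposited matrices held 8887 cells and 52797915 UMIs in the second run and 8869 cells and 98533329 UMIs in the third, of which 8852 and 7511 cells had 500 to 5000 genes and at most 7% mitochondrial counts. No cell barcode was shared between the second and the third run. The runs were different sorts with 1 library each, so the cells of a run are not replicates. The study's methods also name more than 1 kit version, sequencer and Cell Ranger version across its runs. The matrices listed 28692 genes in the second run and 32285 in the third. Differences between the runs therefore cannot be told apart from differences between the sorts or in how the libraries were made and read.

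Granzyme B is stored in the granules of killer lymphocytes and cleaves proteins of the target cell once it has been delivered with perforin. NK receptors such as NKG2D (Klrk1), the CD94 chain (Klrd1) that pairs with the NKG2 chains (Klrc genes), NK1.1 (Klrb1c in this strain) and the Ly49 family (Klra genes) are carried by NK cells and by innate-like T cells, among them NKT cells and some γδ T cells. Most of these receptor genes lie together in the NK gene complex, and the 19 listed ones spanned chr6:128609227-131353597 (GRCm38). The invariant NKT cell is known for a TCR α chain that uses the Trav11 segment, for the factor PLZF (Zbtb16), and for type 1, type 2 and type 17 subsets that leave or remain in the thymus.

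Gzmb+ Ccl5-low cells made up 9.34% (8.74 to 9.97%) of the cells within the limits in the second run and 5.15% (4.66 to 5.68%) in the third. They were 59.9% (57.3 to 62.5%) of the base gate in the second run and 57.2% (53.4 to 61.0%) in the third. Intervals of shares are exact 95% Clopper-Pearson intervals, and they cover counting error only. A Gzmb UMI was found in 4.43% of the 2799 cells of the second run with at least 2 UMIs of Il2ra, the CD25 gene that marks DN2 and DN3 cells, and in 2.72% of 3417 such cells in the third run. Those Il2ra cells were also deeper, with median UMI counts of 7599 and 11073, against 2786 and 6138 in the Gzmb+ Ccl5-low cells. Among cells that passed the other gates but had 3 or more Ccl5 UMIs, 69.2% of 442 in the second run and 72.3% of 195 in the third had a Gzmb UMI.

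Gzmb counts were low in most members. The median was 2 UMIs in the second run and 3 in the third, and the highest cell had 26 and 35. A single UMI put 252 of the 827 and 95 of the 387 cells in the class. Gzmb-zero cells had median depths of 2750 and 6009 UMIs, close to those of the members, and at such depths a cell without a Gzmb UMI may still hold Gzmb mRNA. The gate had no gap at its other limits either. In the second run 37 members had 2 Ccl5 UMIs and 33 otherwise qualified Gzmb+ cells had 3, both with a median of 2 Gzmb UMIs, and 54 members had 1 Trac UMI while 36 otherwise qualified cells had none. In the third run the corresponding cells numbered 19 and 15 at the Ccl5 limit and 32 and 24 at the Trac limit.

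**Figure D1:**
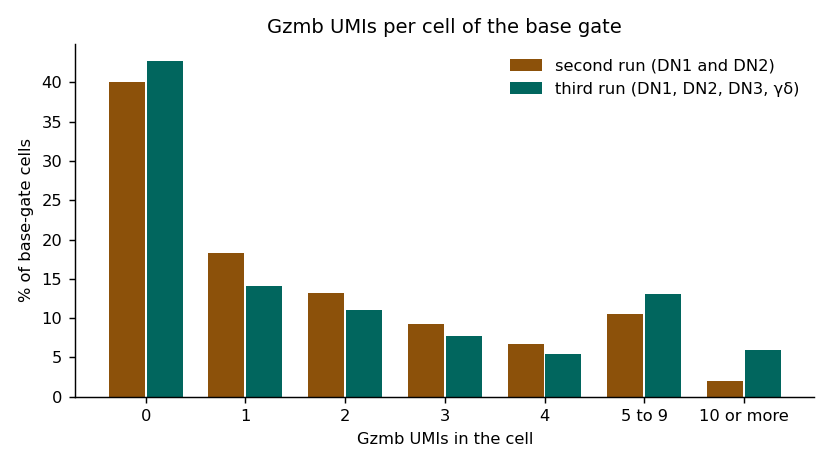
Percent of the base-gate cells (y axis) by the number of Gzmb UMIs in the cell (x axis), for the second run (1380 cells) and the third run (676 cells). The bars at 0 hold the 553 and 289 Gzmb-zero cells, and the counts fall off from 1 UMI upward without a gap.

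The gate genes chose the cells, so their levels are given only as a description. Levels are CPM, the UMIs of a gene for every 1000000 UMIs summed over all cells of a class in a run. This scale compares classes for 1 gene, not genes with each other. Gzmb stood at 900 CPM in second-run members and 590 CPM in those of the third. Klrd1 was at 1039 CPM in members and 884 CPM in Gzmb-zero cells of the second run, and at 458 and 327 CPM in the third, with a UMI in 92.0% and 85.0% of the members. Trac was at 1405 and 1477 CPM in members and Gzmb-zero cells of the second run and at 672 and 596 CPM in the third, against 22.1 and 7.1 CPM in the Il2ra cells of the 2 runs. Trac, at chr14:54220521-54224206 (GRCm38), was of like level in both base-gate classes of a run. Its gap to the Il2ra cells was set in part by the gate, which asked for a Trac UMI.

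The members carried T cell transcripts. A UMI of Cd3d, Cd3e or Cd3g, the CD3 chains of the TCR complex, was present in 100% of them in both runs, and a UMI of the TCR β constant regions Trbc1 or Trbc2 in 98.8% and 100%. B cells (at least 2 Cd79a UMIs and 1 Cd79b UMI) give a rough background of such shares. Of the third-run B cells, 16.1% were among the 750 cells with the highest Scrublet doublet scores. With all UMIs, 21.1% of them had an Il2ra UMI. The part of doublets in their shares was not tested. With every cell thinned to 2000 UMIs, a CD3 UMI was in 99.8% and 99.5% of the members and in 41.2% of 17 and 29.4% of 395 B cells. A Trbc1 or Trbc2 UMI was then in 97.0% and 98.2% of the members and in 35.3% and 40.8% of the B cells. Klrb1c, the NK1.1 gene, had a UMI in 71.5% and 84.2% of the members and in 3.07% and 1.84% of the Il2ra cells. It is a gene of the gate, which raises its share in the members. The sort gated out cells staining for NK1.1 and TCRβ. Surface protein was not measured in these libraries. Cd8a had a UMI in 0% and 0.5% of the members, Cd4 in 0% and 1.0%, the NK cell receptor gene Ncr1 in 0% and 0.5%, and the NK cell factor gene Eomes in none of the members of either run. A count of 0 among 827 and 387 cells allows a share of cells with a UMI of up to 0.363% and 0.775%, taken as 3 counts of the total and not as a Clopper-Pearson bound, for counting error only. The TCR δ constant region Trdc, at chr14:54142851-54148868 (GRCm38), had a UMI in 12.9% of the members in both runs. At 2000 UMIs per cell it was in 8.46% (6.66 to 10.6%) and 4.91% (2.98 to 7.56%) of the members, against 7.85% (5.39 to 11%) of the B cells of the third run and 57.7% and 39.3% of the Il2ra cells. The second run had too few B cells for this (2 of 17).

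The members with a Trdc UMI stood apart from the others in depth. Median UMI counts were 6719 in the 107 Trdc-positive members of the second run and 9426.5 in the 50 of the third, against 2719.5 and 6041 in the members without Trdc. Il2ra UMIs were in 44.9% and 30.0% of the Trdc-positive members and in 4.2% and 8.6% of the others. Their summed Gzmb level was 429 and 347 CPM, against 1065 and 651 CPM in the members without Trdc. The part of doublets in this was not tested. By Scrublet, 10.8% and 11.1% of the members, and 9.95% and 9.0% of the Gzmb-zero cells, were among the 750 top-scoring cells of their run. Those 750 were taken from 8852 cells in the second run and 7511 in the third. The shares are of all members, not of the Trdc-positive ones. Leaving out all cells with Trdc from the comparison below gave 188 genes higher and 199 lower, against 157 and 201 with them.

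Few V segments were read, and Trav11 led the Trav segments. In the second run 121 of 159 Trav UMIs in members were Trav11 (76.1%), and in the third 62 of 105 (59.0%). The Il2ra cells had Trav11 in 2.34% and 1.98% of their Trav UMIs. By cell, a Trav11 UMI was found in 10.9% (8.84 to 13.2%) and 11.9% (8.84 to 15.5%) of the members, 9.95% and 9.69% of the Gzmb-zero cells, and 0.107% and 0.146% of the Il2ra cells. Trav11 was therefore seen at similar shares on both sides of the Gzmb gate, and most cells showed no Trav segment at all. Trav11 has close copies in the genome (Trav11d, Trav11n), so its reads may be split. Of the β chain segments, Trbv1 had a UMI in 3.62% of the members of the third run, 5.19% of the Gzmb-zero cells and 0.498% of the Il2ra cells, but in 0.121% of the members of the second run. Trbv13-2 was in 6.46%, 8.65% and 7.14% of these classes in the third run. Trgv2 was read in 3.99% (2.76 to 5.56%) and 38% of the members and in 8.18% (7.19 to 9.26%) and 46.8% of the deeper Il2ra cells.

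The main comparison set Gzmb+ Ccl5-low cells against Gzmb-zero cells, asking what else differs between NK-receptor Trac+ cells with and without a Gzmb UMI. Members had higher levels of other cytotoxic genes and of further NK receptor genes, and lower levels of the genes of type 17 lymphocytes, the cells that make interleukin 17. TCR and CD3 genes were mostly not called. The UMIs of each class were summed per run, and the 4 sums were tested with edgeR's quasi-likelihood test, two-sided, with the run as a block, and p-values were adjusted by Benjamini-Hochberg across the whole table, so that every adjusted p below is from that test unless DESeq2 is named. Of 9417 genes tested, 157 were higher (1.67%) and 201 lower (2.13%) in Gzmb+ Ccl5-low cells at an adjusted p under 0.05, and 17 of the 358 had opposite directions in the 2 runs. A shared direction is favoured by the fit over both runs and is no separate support, and over the 9337 tested genes with a UMI in each sum the log2 ratios of the runs had a Pearson r of 0.28, a description across genes. The fit had 1 residual degree of freedom and drew its spread from all genes, so the p-values rest on these 2 unlike runs only. Each SE given with a log2 fold change was derived from that fold change and its test statistic. It therefore does not measure the gene's own spread between the runs, for which the levels in each run are given. DESeq2 called 14 higher and 25 lower, all of them among the edgeR calls. When every cell was thinned to 2000 UMIs before the gates were applied, 5 genes were higher and 5 lower. These included Gzma, Klrc1 and Emb of the genes described below. Not called were, among others, Klrc2 (log2 fold change 0.30, edgeR adjusted p 0.813), Klre1 (0.31, 0.882), Klra5 (0.48, 0.301) and Klra9 (0.14, 0.912). The same held for Styk1 (0.52, 0.512), Gzmc (1.01, 0.601), Nkg7 (0.23, 0.136), Ckb (-0.72, 0.759), Tmem176a (-0.98, 0.611), Klf2, Il7r, Zbtb16 and Ikzf2.

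**Figure D2:**
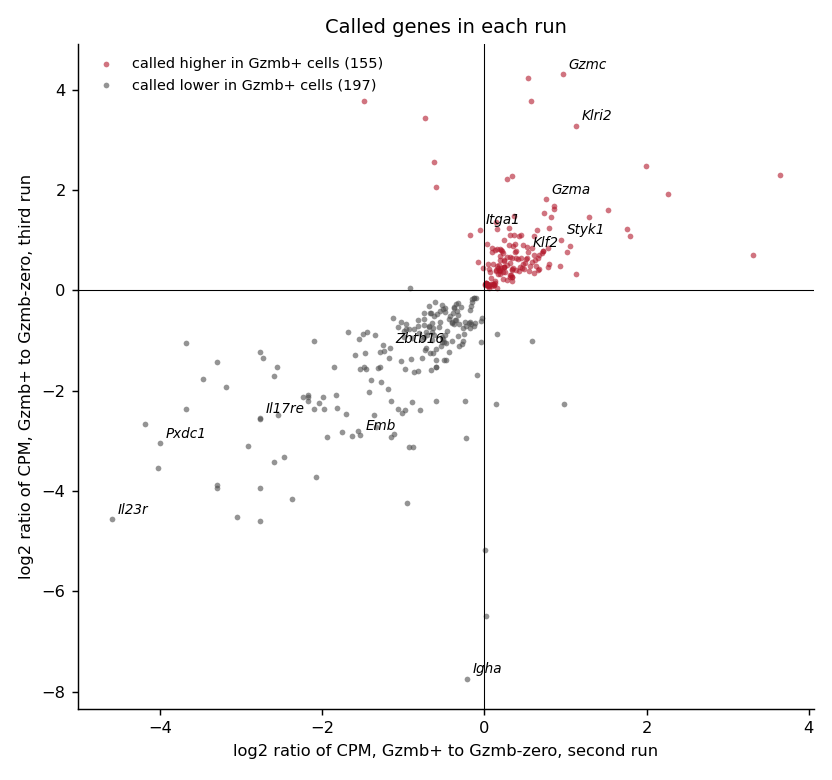
Log2 ratio of CPM in Gzmb+ Ccl5-low to Gzmb-zero cells in the second run (x axis) and the third run (y axis), for the called genes with a UMI in each of the 4 sums (155 higher and 197 lower). Most points have the same sign on both axes, which calling them over both runs favours, with the higher genes at the upper right and the lower genes at the lower left.

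Cytotoxic granule genes were the group most related to the gate. Of 13 tested, 7 were higher and none lower, with a median log2 fold change of 0.50 against 0.01 over all genes tested. DESeq2 called none of the 13. Among the 7, the perforin gene Prf1 was not higher in the second run, where it had very few UMIs. Gzma, granzyme A (chr13:113093825-113100981, GRCm38), was at 235 CPM in members and 139 CPM in Gzmb-zero cells of the second run and at 275 and 77.9 CPM in the third. Its log2 fold change was 1.29 ± 0.10 (SE, adjusted p 1.86e-37 by edgeR), though DESeq2 gave an adjusted p of 0.762. Gzma was not limited to these cells. It had a UMI in 21.2% and 32.3% of the members but in 49.8% and 63.7% of the deeper Il2ra cells, whose summed levels were 191 and 256 CPM. Nkg7, a granule membrane protein, was at 1836 and 1419 CPM in the second run and at 1380.5 and 812 CPM in the third (log2 fold change 0.60 ± 0.05, SE). Serpinb9, the inhibitor that protects killer cells from their own granzyme B, was at 44.5 and 25.6 CPM and at 83.1 and 35.0 CPM (1.10 ± 0.16). Both Nkg7 and Serpinb9 were thus higher in the members in each run.

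Fasl, the death ligand, was also higher, with a log2 fold change of 0.66, and so was Serpinb6b, another granzyme inhibitor, with 0.50. Neither was called at 2000 UMIs per cell, in a window of total UMIs or by DESeq2. Gzmc (chr14:56231441-56234656, GRCm38), a granzyme gene of the same cluster as Gzmb, had the largest log2 fold change of this group, 2.41 ± 0.23 (SE). A single cell held 74.2% of the Gzmc UMIs in members of the third run, and without the highest cell of each sum the log2 fold change was 1.62. In the window of total UMIs it was 1.08 and not called (adjusted p 0.158 by edgeR). Granzyme genes are close in sequence, so reads may be shared among them.

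Of 17 NK receptor genes outside the gate, 6 were higher and 2 lower (Klrb1a and Klra1, the latter lower in the second run alone), with a median of 0.08. The higher ones included partners of CD94. Klrc1, the inhibitory NKG2A chain (chr6:129666015-129678973, GRCm38), was at 233 CPM in members and 128 CPM in Gzmb-zero cells of the second run and at 109 and 35.5 CPM in the third, with a log2 fold change of 1.16 ± 0.11 (SE, adjusted p 2.04e-22 by edgeR). Klrc2, the activating NKG2C chain, was at 195 and 125 CPM and at 211 and 91.7 CPM (0.95 ± 0.10). Klre1, a receptor that pairs with Klri chains, was at 165 and 108 CPM and at 135 and 64.1 CPM (0.86 ± 0.11). All these were higher in members of both runs, and DESeq2 also called each of Klrc1, Klrc2 and Klre1. Klri2, a possible partner of Klre1, was at 39.0 and 17.8 CPM and at 22.4 and 2.31 CPM (1.71 ± 0.25), and DESeq2 did not call it (adjusted p 0.114).

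The Ly49 genes did not move as a block. Klra5 (chr6:129898996-129917650, GRCm38) was at 140 CPM in members and 78.9 CPM in Gzmb-zero cells of the second run and at 189 and 68.7 CPM in the third, with a log2 fold change of 1.19 ± 0.11 (SE). Klra9, another member of the family, was at 771 and 592 CPM and at 577 and 302 CPM (0.68 ± 0.07). DESeq2 did not call Klra9 (adjusted p 0.811), and without the cells of type 17 genes its log2 fold change was 0.35. Klrb1a, a relative of the NK1.1 gene, was lower in members at 2.07 and 8.88 CPM and at 5.26 and 10.6 CPM (log2 fold change of -1.38), on few UMIs, and it was not called by DESeq2, without the top Scrublet cells, without cells with Trdc or at 2 or more Gzmb UMIs. The Ly49 and Klrc genes have near-identical copies that may take each other's reads, so the split among them is uncertain. Styk1, a kinase-like gene of the same complex, was higher at 94.6 and 49.1 CPM and at 158 and 78.8 CPM (1.01 ± 0.12).

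With every cell thinned to 2000 UMIs, a Klrc1 or Klrc2 UMI was found in 49.0% and 43.9% of the members and in 31.1% and 22.5% of the Gzmb-zero cells, against 0.786% and 0.820% of the Il2ra cells. A UMI of any listed Ly49 gene was in 63.6% and 66.9% of the members and in 57.0% and 47.4% of the Gzmb-zero cells. The shares were higher in members in both runs, and the receptors were also common in Gzmb-zero cells.

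**Figure D3:**
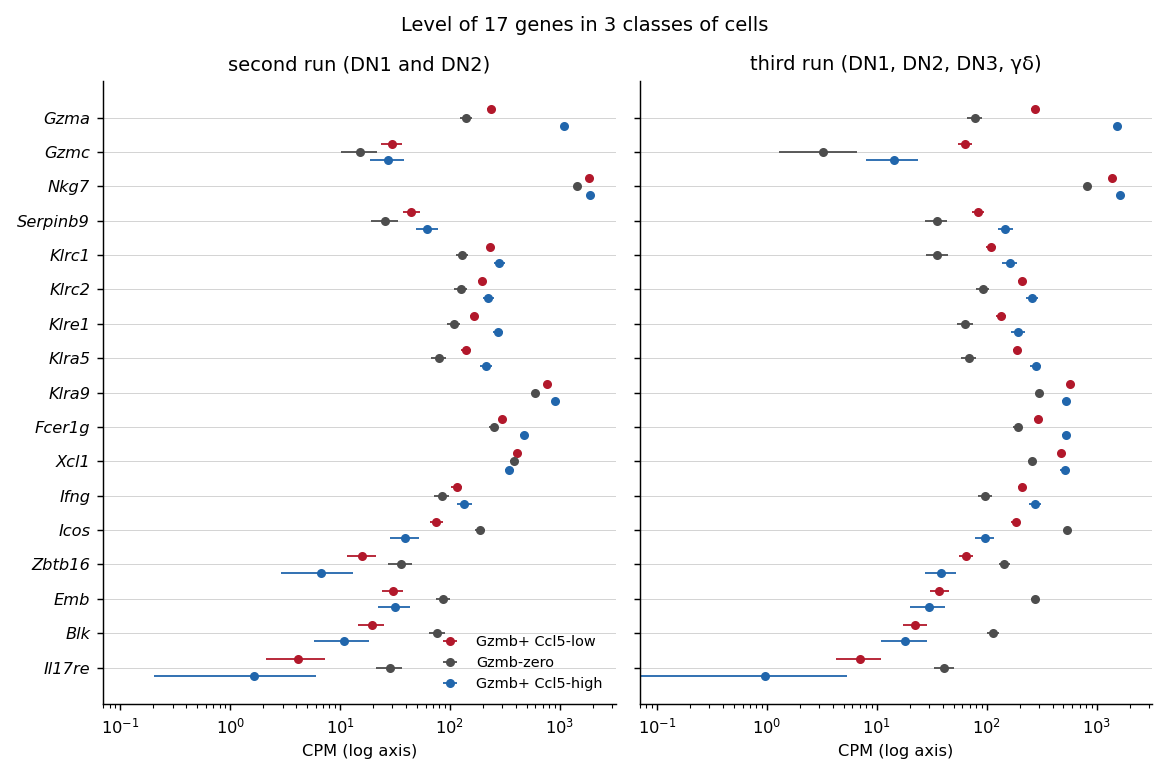
Summed level of 17 genes in CPM (x axis, log scale) in Gzmb+ Ccl5-low cells, Gzmb-zero cells and Gzmb+ Ccl5-high cells, with 1 panel for each run and bars for exact 95% Poisson intervals of the UMI counts, which cover counting error only. Gzma is at 235 and 275 CPM in the Gzmb+ Ccl5-low cells and above 1000 CPM in the Ccl5-high cells.

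Among 5 adaptors that carry signals from such receptors, 2 were higher. Fcer1g, the common γ chain of Fc receptors, was at 298 and 251 CPM in members and Gzmb-zero cells of the second run and at 292 and 191 CPM in the third (log2 fold change 0.46 ± 0.08, SE). Lat2 was at 25.2 and 15.1 CPM and at 21.4 and 7.38 CPM (1.10 ± 0.25). Neither was called at 2000 UMIs per cell, by DESeq2 or without the cells of type 17 genes described below. Hcst, the DAP10 adaptor of NKG2D, did not pass the test at 0.14 (adjusted p 0.396 by edgeR), nor did Tyrobp, the DAP12 adaptor, at 0.53 (adjusted p 0.169). Without cells with Trdc both were called higher (0.21 and 0.87, edgeR adjusted p 0.0450 and 0.00548), and with no limit on Ccl5 Tyrobp was called lower (-0.63, adjusted p 0.0108). The effector cytokine genes Ifng and Xcl1, chosen after their values were seen, were higher. Ifng was at 115 and 84.6 CPM and at 208 and 96.8 CPM (0.84 ± 0.11), and Xcl1, a chemokine of NK cells, at 406 and 382 CPM and at 471 and 261 CPM (0.50 ± 0.08). They were the 2 called genes of 9 tested cytokines and chemokines, and DESeq2 called neither. Without the cells of type 17 genes, Xcl1 was at 0.19 and not called (adjusted p 0.411 by edgeR). Markers shared with NK cells and ILC1 were higher for 4 of 7 tested (Tbx21, Fcer1g, Xcl1 and Klre1). The 9 listed ones summed to 1005 CPM in members and 848 CPM in Gzmb-zero cells of the second run and to 1008 and 593 CPM in the third, and Xcl1 gave the most UMIs in members. Of these 7, 2 were higher at 2000 UMIs per cell, 1 by DESeq2 and 1 without the cells of type 17 genes. The defining NK markers Ncr1 and Eomes were at or near 0 in the members.

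Transcription factors changed in both directions, with 2 of 15 higher and 3 lower. Tbx21, the type 1 factor T-bet, was at 70.1 CPM in members and 44.9 CPM in Gzmb-zero cells of the second run and at 53.7 and 38.3 CPM in the third (log2 fold change 0.60 ± 0.15, SE). Hopx, a homeodomain-only protein of effector lymphocytes, had 0.98 ± 0.17. Zbtb16, the PLZF gene, was lower at 15.9 and 35.5 CPM and at 65.2 and 145 CPM (-1.13 ± 0.14). Ikzf2, the Helios gene, was lower at 58.7 and 114 CPM and at 120 and 206 CPM (-0.83 ± 0.11), and Tox had -0.73 ± 0.15. Tbx21 and Hopx lost their calls at 2000 UMIs per cell (edgeR adjusted p 0.292 and 0.275), in a window of total UMIs, by DESeq2 and without the cells of type 17 genes (adjusted p 0.554 and 0.139), and Tbx21 also at 3 or more NK receptor UMIs. At 2000 UMIs per cell, in the UMI window, by DESeq2 and without the cells of type 17 genes, Zbtb16 and Ikzf2 were still called, while Tox was called in the window only. Klf2, a factor that controls lymphocyte exit from the thymus, was higher at 626 and 432 CPM and at 191 and 113 CPM (0.66 ± 0.08), and DESeq2 called it too.

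Cytokine receptor genes were split as well, with 3 of 13 higher and 3 lower. Higher were Il2rb, the β chain shared by the interleukin 2 and 15 receptors, with a log2 fold change of 0.34, Il12rb2 with 0.83 and Il21r with 0.44. None of these 3 was called at 2000 UMIs per cell (edgeR adjusted p 0.325, 0.636 and 0.393), at 3 or more NK receptor UMIs, by DESeq2 or without the cells of type 17 genes, where Il2rb was at 0.054. Lower were Il7r, the interleukin 7 receptor, with -0.44, Il18r1 with -0.67 and Il12rb1 with -1.13. Neither Il18r1 nor Il12rb1 was called at 2000 UMIs per cell (edgeR adjusted p 0.0547 and 0.238), in the UMI window or by DESeq2 (adjusted p 0.0915 and 1.0), and Il12rb1 was also not called without the cells of type 17 genes (-0.47, edgeR adjusted p 0.711). Il7r was at 338 CPM in members and 455 CPM in Gzmb-zero cells of the second run and at 905 and 1284 CPM in the third. Of 17 homing and adhesion genes, Klf2 and Itga1 were higher and none lower, Itga1 with opposite signs in the 2 runs. Cxcr6, a receptor that is abundant on NKT cells, was at 367 and 401 CPM and at 256 and 255 CPM (-0.04, adjusted p 0.937 by edgeR).

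Few TCR genes were called, though 6 of 15 αβ receptor and CD3 genes had an unadjusted edgeR p under 0.05. Over all 9417 genes tested, 1089 did. Of these 15 genes 1 was higher, Cd2 with a log2 fold change of 0.28, and 1 lower, the TCR kinase gene Zap70 with -0.40. At 2000 UMIs per cell neither was called (edgeR adjusted p 0.837 and 0.175), and Cd2 was also not called without scaling or at a 5% mitochondrial limit. Trbc2 was at 1569 CPM in members and 1791 CPM in Gzmb-zero cells of the second run and at 1580 and 1672 CPM in the third (-0.11, adjusted p 0.317 by edgeR), but it was called lower at 2000 UMIs per cell (-0.17, 0.0490) and without cells with Mki67 or Top2a (-0.20, 0.0436). Trdc did not pass either (-0.18, adjusted p 0.579), but it was called lower without the top Scrublet cells (-1.23, adjusted p 1.7e-07), at 0 Ccl5 UMIs (-0.45, 0.00718) and without cells with Mki67 or Top2a (-0.46, 0.00439). Tcrg-C1, a TCR γ constant region, was lower with -0.32 ± 0.08 (SE) and lost its call at 2000 UMIs per cell, by DESeq2 and without the cells of type 17 genes. Of the 5 γδ receptor genes tested, 1 was lower, and 3 without the top Scrublet cells. None of 16 mitosis and S phase genes and none of 17 interferon-response genes outside the gate was called by edgeR in this comparison. At an unadjusted edgeR p under 0.05 were 3 and 4 of them, against the 1089 of 9417 above. DESeq2 called none of either list. Over all genes tested, edgeR called 1.67% higher and 2.13% lower, so no call in lists of this size says little. Without the top Scrublet cells, 2 of the mitosis and S phase genes were higher.

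Type 17 genes gave the widest difference, on the side of the Gzmb-zero cells. All 11 tested were lower in members, with a median log2 fold change of -2.08 (the other 2 of the list of 13, Il17a and Il17f, were too rare to test). Il23r and Il1r1 were under the minimum count in both sums of the members and were tested only through the Gzmb-zero cells, so their direction was set by that filter, and the median of the other 9 was -1.66. Of the 11, 8 were lower at 2000 UMIs per cell, 6 by DESeq2 and 3 without the cells of type 17 genes described below. The last count was set in part by construction, since that alternative leaves out every cell with a UMI of Il17re, Il23r, Ccr6, Il1r1 or Blk. Il17re, a subunit of the receptor for interleukin 17C, was at 4.14 CPM in members and 28.2 CPM in Gzmb-zero cells of the second run and at 7.01 and 41.0 CPM in the third (-2.60 ± 0.26, SE, adjusted p 1.01e-20 by edgeR). Blk, a Src-family kinase of γδ type 17 cells and of B cells, was at 19.3 and 76.3 CPM and at 22.4 and 115 CPM (-2.16 ± 0.16). Both were lower in members of each run, and DESeq2 called both. The other genes named here from the list were picked after their values were seen. The costimulatory receptor gene Icos was at 74.9 and 186 CPM and at 183 and 538 CPM (-1.43 ± 0.09). Il23r, the interleukin 23 receptor, had 1 UMI in members and 16 in Gzmb-zero cells of the second run and 3 and 54 in the third.

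Few cells showed a UMI of the rarer type 17 genes. At 2000 UMIs per cell, a UMI of any of Il17re, Il23r, Ccr6, Il1r1 and Blk was found in 2.54% (1.58 to 3.86%) and 3.62% (1.99 to 6.00%) of the members and in 10.1% (7.74 to 12.9%) and 18.0% (13.7 to 22.9%) of the Gzmb-zero cells. The Il2ra cells had 5.68% and 3.90%. In an alternative added after seeing the data, all cells with a UMI of these 5 genes were left out of both classes, and 39 genes were then higher and 31 lower, with 28 of the original calls kept in each direction. Of the genes above, Gzma (log2 fold change 1.20), Klrc1 (0.85), Klrc2 (0.59), Klra5 (0.77), Klre1 (0.57), Klf2 (0.50), Ifng (0.48), Icos (-0.76), Ikzf2 (-0.96) and Zbtb16 (-0.81) were still called. The cytotoxic list then had 4 higher and none lower, and the NK receptor list 6 higher and 1 lower.

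**Figure D4:**
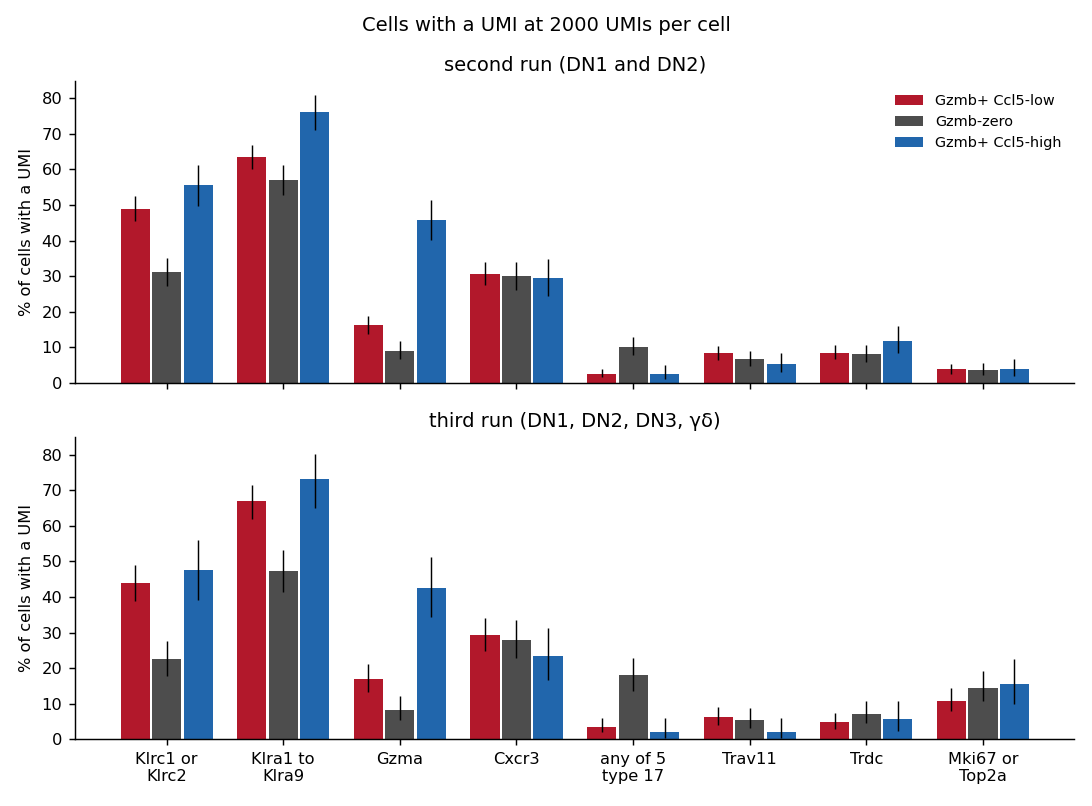
Percent of cells with at least 1 UMI (y axis) of 8 genes or gene sets after every cell was thinned to 2000 UMIs, in 3 classes and 2 runs, with exact 95% Clopper-Pearson intervals. Klrc1 or Klrc2 was found in 49.0% and 43.9% of Gzmb+ Ccl5-low cells, and the 5 type 17 genes in 10.1% and 18.0% of Gzmb-zero cells.

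Other genes with large differences were named by size of change. Among named genes with a mean of at least 20 CPM, Pxdc1 had the largest decrease after Igha, at 3.45 CPM in members and 55.4 CPM in Gzmb-zero cells of the second run and at 8.77 and 72.4 CPM in the third (log2 fold change of -3.35 ± 0.22, SE). Emb, the cell adhesion protein embigin, was at 30.0 and 86.7 CPM and at 37.2 and 276 CPM (-2.33 ± 0.13). Ckb, the brain-type creatine kinase, was at 26.9 and 95.1 CPM and at 35.1 and 178 CPM (-2.09 ± 0.14). Lower as well were Actn2 (-2.37), Avpi1 (-2.32), Tmem176a (-2.22) and Serpinb1a (-2.04). DESeq2 did not call Emb, Tmem176a or Serpinb1a. Without the cells of type 17 genes, Emb was at -0.46 (adjusted p 0.583 by edgeR), Ckb at -0.73 (0.129), Actn2 at -0.92 (0.553), Tmem176a at 0.13 and Serpinb1a at 1.03, none of them called, and Pxdc1 and Avpi1 were too rare to test.

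In the other direction, Ifitm3, a membrane protein that restricts virus entry, was at 33.5 and 9.92 CPM and at 33.3 and 14.3 CPM (log2 fold change 1.48 ± 0.23, SE). The potassium channel gene Kcnj8 had 1.01 ± 0.23. Neither was called in the UMI window (edgeR adjusted p 0.576 and 0.0831) or by DESeq2 (adjusted p 0.324 and 1.0), and Kcnj8 was also not called at 3 or more NK receptor UMIs or without the cells of type 17 genes (0.75, edgeR adjusted p 0.214). H2-Aa, an MHC class II gene of antigen-presenting cells, had 2.56 ± 0.27 but came from few cells. It was not called at 2 or more Trac UMIs (edgeR adjusted p 0.0935), without cells with Mki67 or Top2a (0.87, adjusted p 0.248) or by DESeq2. B cell markers, summed, were at 215 CPM in members and 195 CPM in Gzmb-zero cells of the second run and at 271 and 137 CPM in the third. Ighm gave the most UMIs of the list in members, and 2 of the 3 tested were higher. After leaving out the cells with at least 10 UMIs of B cell or MHC class II genes, 8 members and 1 Gzmb-zero cell in the third run and 1 of each in the second, neither was called. The immunoglobulin gene Igha was formally the lowest (-5.93), and 1 Gzmb-zero cell held 99.7% of its UMIs in the third run; without the highest cell of each sum the value was 0.11.

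Within the base gate, most of the difference in Nkg7 and Icos lay between no Gzmb UMI and the first few, whereas Gzma in the third run was highest in cells with 3 or more. Nkg7 was at 1419 CPM in cells with 0 Gzmb UMIs of the second run, and at 1724, 1854, 1902 and 1883 CPM in cells with 1, 2, 3 to 4, and 5 or more. In the third run the order was 812, 1094, 1429, 1480 and 1488 CPM. Icos went from 186 CPM at 0 Gzmb UMIs to 92.2, 90.6, 55.4 and 62.0 CPM in the second run, and from 538 to 205, 204, 203 and 148 CPM in the third. Cells with 1 Gzmb UMI thus lay nearer to those with more than to those with none for Icos in both runs. For Nkg7 in the third run they lay nearer to those with none. The groups were cut on a gate gene and differed in depth, so this is a description without a test. Median UMI counts were 2656 and 5698 at 1 Gzmb UMI and 3148.5 and 7172.5 at 5 or more.

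**Figure D5:**
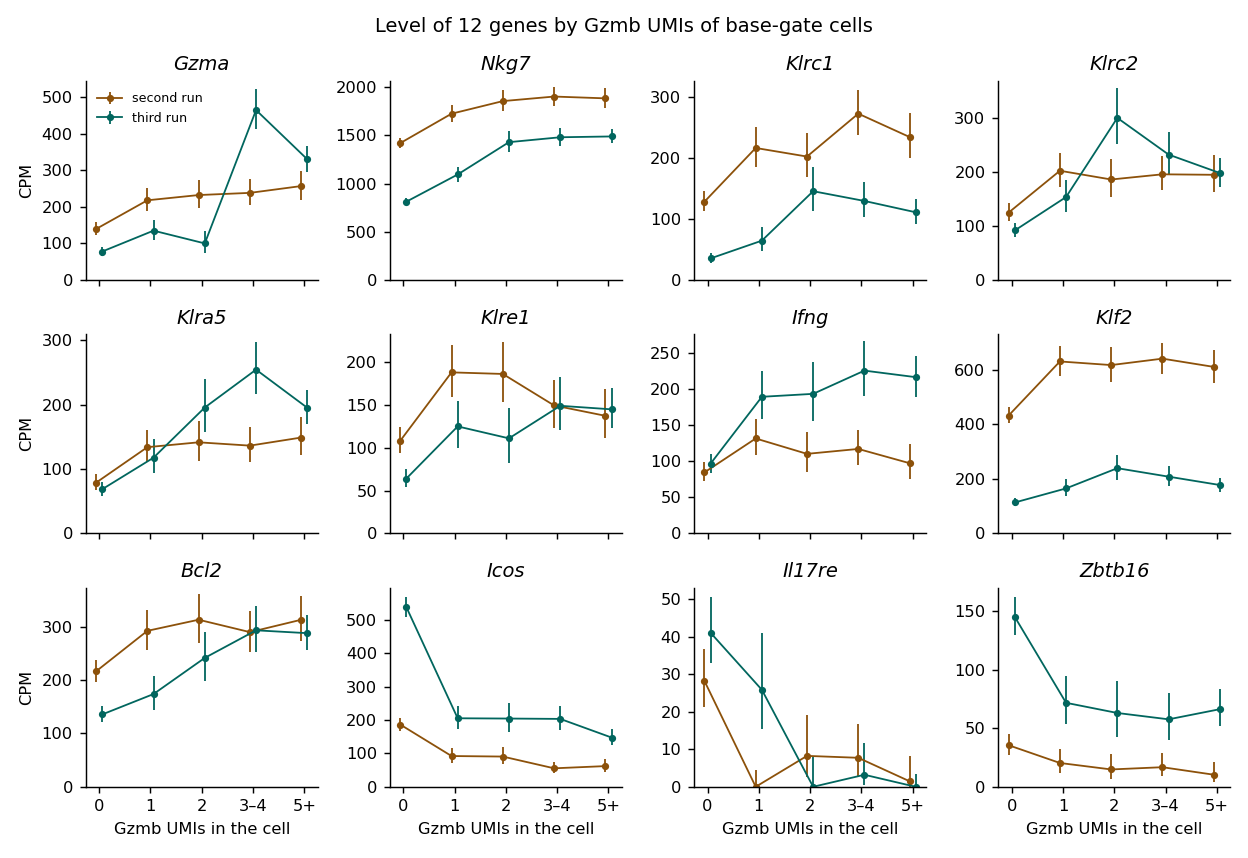
Summed level in CPM (y axis) of 12 genes in base-gate cells grouped by Gzmb UMIs (x axis: 0, 1, 2, 3 to 4, 5 or more), for the second and the third run, with exact 95% Poisson intervals. Icos steps down between 0 and 1 Gzmb UMI, from 186 to 92.2 CPM and from 538 to 205 CPM.

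A second comparison set the Gzmb+ Ccl5-low cells against Gzmb+ cells that met the same gates but had 3 or more Ccl5 UMIs (306 in the second run and 141 in the third). Among cells with Gzmb mRNA, those low in Ccl5 had far less Gzma, less of several S100 and NK receptor genes, and more Izumo1r, Ly6a, Icos and Zbtb16. By the same edgeR test, 75 of 9012 genes tested were higher in Ccl5-low cells (0.832%) and 120 lower (1.33%), while DESeq2 called 6 and 21. Ccl5 itself chose the classes and stood at 61 and 3960 CPM in the second run and at 30 and 2583 CPM in the third. This comparison shares the member sums with the first, so the results are not independent.

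Gzma was at 235 CPM in Ccl5-low and 1083 CPM in Ccl5-high cells of the second run and at 275 and 1526 CPM in the third, with a log2 fold change of -2.35 ± 0.06 (SE), and DESeq2 called it as well. Ifitm3 was at 33.5 and 112 CPM and at 33.3 and 152 CPM (-1.98 ± 0.14). The other named genes on this side were rare, namely the chemokine gene Ccl3 (-2.20), the Ly49 gene Klra8 (-2.12) and Ifitm1 (-2.35). Both granzyme A and Ifitm3 were therefore lowest in Gzmb-zero cells, intermediate in Ccl5-low members and highest in Ccl5-high cells of each run, by level and without a test of the order.

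Izumo1r, the folate receptor 4 gene, was higher in Ccl5-low cells at 97.0 and 21.6 CPM and at 92.6 and 11.5 CPM, with a log2 fold change of 2.48 ± 0.19 (SE). Pmepa1, a target of TGF-β signaling, had 1.06 ± 0.20 and Hivep3, a zinc finger factor of NKT cell development, 1.02 ± 0.26, though Hivep3 was not called without the top Scrublet cells (adjusted p 0.0609 by edgeR). Cd74, the invariant chain of MHC class II, had 4.44, but 1 cell held 90.6% of its UMIs in members of the second run. Gzmc had 1.08 and lost its call without the highest cells (adjusted p 0.767 by edgeR). Izumo1r was higher by a wide margin in both runs and did not rest on 1 cell, with 2.82 after the highest cells were left out.

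By list, NK receptor genes had 2 of 16 higher and 8 lower in Ccl5-low cells, homing and adhesion genes 0 of 18 higher and 8 lower, and S100, annexin, galectin and Ly6 genes 3 of 19 higher and 10 lower. DESeq2 called 3 of the NK receptor genes, none of the homing genes and 9 of the S100 group lower. Mitosis and S phase genes had 9 of 16 lower and none higher, but 1 without the top Scrublet cells and 1 by DESeq2, and Mki67 or Top2a UMIs were in 7.01% and 24% of the Ccl5-low and in 6.86% and 30.5% of the Ccl5-high cells. Cytotoxic granule genes had 1 of 13 higher and 2 lower. The following examples were chosen after their values were seen. Klf2 was at 626 CPM in Ccl5-low and 934 CPM in Ccl5-high cells of the second run and at 191 and 423 CPM in the third (log2 fold change of -0.80 ± 0.07, SE), and S100a4, a calcium-binding protein of effector cells, had -1.03 ± 0.07. Ly6a, the Sca-1 gene, was at 245 and 124 CPM and at 206 and 110 CPM (0.94 ± 0.10), Icos had 0.93 ± 0.13 and Zbtb16 0.86 ± 0.23. In the transcription factor list that holds Zbtb16, 2 of 15 were higher, but 1 without the top Scrublet cells and 1 by DESeq2. In the type 17 list that holds Icos, 2 of 7 were higher, with 2 without the top Scrublet cells and 1 by DESeq2. The Ccl5-low members thus lay between the Gzmb-zero and the Ccl5-high cells for Icos and Klf2 in each run.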

How the data were processed

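The authors deposited raw UMI counts per gene and cell from Cell Ranger (mm10; version 4.0.0 in the header of the third matrix), not normalized and from 1 library per run. Limits on cells were 500 and 5000 detected genes and 7% mitochondrial UMIs, and doublets were not removed. Members and gene lists were chosen with earlier results of these data known. The counts of each class were summed per run and 4 sums were tested with edgeR 4.0.16 (R 4.3.3; quasi-likelihood, TMM, filterByExpr, run as block), Benjamini-Hochberg over all genes, threshold 0.05. The 9 gate genes entered library sizes but not the test. Genes were named when they passed the threshold in the same direction in both runs and belonged to 8 of the lists (the 3 most abundant where fewer than 3 passed), or were among the 10 largest changes each way (5 for Ccl5) at a mean of at least 20 CPM. Unnamed models, ribosomal and mitochondrial genes were left out. DESeq2 1.42.0, other gates, thinning and left-out cells were alternatives. Coordinates are GRCm38. Sampling limits are exact 95% intervals. A gene of the type 17 list is not reported here.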

Additional observations from a re-analysis of the deposited data

Results flagged for a closer look

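Of the listed genes that edgeR called between Gzmb+ Ccl5-low and Gzmb-zero cells, 4 had log2 ratios of CPM of opposite sign in the 2 runs, and the difference between the runs was not tested. The runs are different sorts with 1 library each. Prf1, the perforin gene, had a log2 ratio of -0.18 in the second run, at 1.4 and 1.6 CPM, and 1.10 in the third, at 56.5 and 26.3 CPM. Its second-run levels rested on very few UMIs, so the sign there is uncertain. Itga1, the α1 integrin gene, had -0.053 in the second run and 1.21 in the third. The Ly49 gene Klra1 had -0.92 in the second run and 0.039 in the third. The ratios of Itga1 in the second run and of Klra1 in the third were small, so their signs are uncertain too. The immediate early gene Fos had 0.16 in the second run and -0.88 in the third.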

How the results depend on the processing

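Among the alternatives, those leaving out cells by type 17, B cell or MHC class II genes, leaving out the highest cell of each gene, or keeping genes found in at least 10% of cells were chosen after seeing the data. The cause of each change was not tested. The share of members in the base gate was 62.8% and 61.2% with at least 3 NK receptor UMIs, and 53.6% and 42.4% with gates applied after thinning, which left 160 members in the third run. The count of higher genes fell from 157 to 92 at 2 or more Gzmb UMIs, 99 at 3 or more NK receptor UMIs, 90 at 2 or more Trac UMIs, 50 at 2000 UMIs per cell, 48 in a window of total UMIs, 39 without type 17 cells, 14 by DESeq2 and 5 with gates applied after thinning. The count of lower genes fell from 201 to 98 for genes in at least 10% of cells, 91 at 3 or more NK receptor UMIs, 52 at 2000 UMIs per cell, 44 in the UMI window, 31 without type 17 cells, 25 by DESeq2 and 5 with gates applied after thinning. In the Ccl5 comparison, 48 were higher without the top Scrublet cells, and DESeq2 called 6 higher and 21 lower.

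With no replicate block, that is without the pairing of classes by run, edgeR called 0 genes higher and 0 lower in both comparisons, with 84 and 31 at an unadjusted p under 0.05. The pairing is by library, since both classes of a run come from the same cell suspension.

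Shares of cells with a UMI depend on depth. Gzma was in 21.2% and 32.3% of members with all UMIs, in 16.2% and 17.1% at 2000 UMIs and in 10.6% and 11.6% at 1000. The 5 type 17 genes were in 4.84% and 8.27%, 2.54% and 3.62%, and 1.33% and 1.81%.

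The sign of the log2 fold change turned for these genes. Without type 17 cells, H2-Aa was at -2.11, Serpinb1a at 1.03, Tmem176a at 0.13, Trbc1 at 0.048, Tcrg-C1 at 0.018, Cxcr6 at 0.18, Itgb7 at 0.053 and Itgae at 0.010. With gates applied after thinning, Serpinb6b was at -0.086, Lat2 at -0.15, Tyrobp at -0.16, Il18r1 at 0.044, Itgb7 at 0.057, Cxcr6 at 0.20 and Igha at 0.087. In the UMI window, Igha was at 0.11, Cxcr6 at 0.15 and Itgae at 0.0022. Igha was at 0.071 with 3 or more NK receptor UMIs, 0.11 without the highest cell and 0.12 without B cell or MHC class II cells. Tyrobp was at -0.63 with no limit on Ccl5, where it was called lower (adjusted p 0.0108 by edgeR). Trbc1 was at 0.0010 with 2 or more Gzmb UMIs and 0.0044 without cells with Mki67 or Top2a. Cxcr6 was at 0.032 without the top Scrublet cells, 0.067 with no limit on Ccl5, 0.032 with 3 or more NK receptor UMIs, 0.054 at 2000 UMIs, 0.0056 without cells with Mki67 or Top2a and 0.057 without cells with Trdc. With a single run, the ranges were -0.017 to 0.20 for Cd3g, -0.17 to 0.043 for Trbc1, -0.38 to 0.019 for Trdc and -0.13 to 0.0016 for Cxcr6. Of the other values for single genes under the alternatives with a test, 1009 kept their direction and side of the threshold, 207 kept their direction but no longer passed, and 9 newly passed.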

Other observations

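Genes of effector and memory lymphocytes outside the groups above were called in both directions between Gzmb+ Ccl5-low and Gzmb-zero cells by edgeR, and the examples here were chosen after their values were seen. Of 19 tested S100, annexin, galectin and Ly6 genes, 8 were higher and 5 lower. S100a6, a calcium-binding protein, was at 1135 CPM in members and 767 CPM in Gzmb-zero cells of the second run and at 1016 and 723 CPM in the third, with a log2 fold change of 0.56 ± 0.06 (SE). Ly6c2, a surface marker of effector and memory T cells, was at 1093 and 819 CPM and at 646 and 420.4 CPM (0.55 ± 0.07). Lower were S100a11 (-0.38), the galectin gene Lgals3 (-0.52) and Ly6a (-0.49). Of the 19, 5 were higher and 1 lower at 2000 UMIs per cell, and 6 were higher and none lower without the cells of type 17 genes.

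The survival gene Bcl2 was higher in members at 301 and 216 CPM and at 254 and 136 CPM (log2 fold change 0.71 ± 0.09, SE), while its relatives Bcl2a1b (-0.33) and Bcl2a1d (-0.67), near-identical copies that may share reads, were lower. Tcf7, a factor of early T cells, was lower (-0.46), and so was Pdcd1, the PD-1 gene, at 14.8 and 47.5 CPM and at 22.1 and 39.2 CPM (-1.19 ± 0.19). Without the cells of type 17 genes, Ly6c2 was at 0.21 and not called (edgeR adjusted p 0.178). DESeq2 also called S100a6, Ly6c2, S100a11 and Bcl2, and did not call the others named here.

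Within the members, Gzma was carried by 175 cells of the second run and 125 of the third. Fcer1g UMIs were found in 49.7% and 59.2% of these and in 35.9% and 43.5% of the members without Gzma, a description without a test. The members with Gzma were also deeper, with median UMI counts of 2958 and 6751 against 2712 and 5909. Trdc UMIs were in 22.9% and 16.8% of them against 10.3% and 11.1%, and Il2ra UMIs in 14.3% and 14.4% against 8.13% and 9.92%.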
